A study of Homo sapiens with 6 samples.

Results

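The CCN family and a set of genes known as targets of the transcriptional co-activators YAP and TAZ were examined in LX-2 cells, an established human hepatic stellate cell line. The set held 10 of the 60748 genes in the deposited table and was chosen by gene symbol: the CCN genes CCN1, CCN2, CCN3, CCN4 and CCN5, together with ANKRD1, AMOTL2, LATS2, AXL and CRIM1. The study compared 3 libraries of LX-2FAP cells, which stably overexpress fibroblast activation protein α (FAPα, gene FAP), with 3 libraries of LX-2Vector cells, which carry the empty vector. Per the study's methods the lentivirus of both groups used a vector that also carries EGFP and a puromycin resistance gene, so the controls shared these features. The methods speak of overexpressing clones selected with puromycin and do not state whether the LX-2Vector cells were selected. A difference between selected clones and an effect of FAPα therefore cannot be told apart here. All 6 libraries came from cells cultured for 24 h in DMEM with fetal bovine serum. The sources used here do not say whether the libraries of a group came from separate cultures, so p-values measure only the spread between these libraries, which may be technical.

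CCN proteins are secreted matricellular proteins that bind integrins, LRP receptors and heparan sulfate proteoglycans. CCN2, also named CTGF, is widely used as a marker of fibrogenic stellate cells, and CCN1, also named CYR61, is measured with it in many studies as a readout of YAP activity. In the Hippo pathway, the kinases MST1/2 (STK4, STK3) activate the kinases LATS1/2. LATS1/2 in turn phosphorylate YAP (gene YAP1) and TAZ (gene WWTR1), which keeps them in the cytoplasm. When this restraint is lifted, YAP and TAZ enter the nucleus and act through the DNA-binding TEAD factors on genes such as CCN1, CCN2, ANKRD1, AMOTL2, LATS2, AXL and CRIM1. LATS2 and AMOTL2 are themselves restraints on YAP, so their transcription forms a feedback loop.

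TEAD factors bind DNA, so the stretches before the transcription start of the members were searched for the letters GGAATG, the core of the TEAD motif, on both strands (CATTCC on the opposite strand). RefSeq windows of 250 bases before to 50 bases after the start were at hand for 5 of the 10 members, in 7 windows on GRCh38.p14. The members with such a window were CCN2, ANKRD1, AMOTL2, LATS2 and AXL. Each of these 5 genes held GGAATG in 1 window, so 5 of the 7 windows held it, against 14.0% of all 35116 windows of this length. The genes were picked as known YAP/TAZ targets, so this share is no independent evidence of control by TEAD. The region before the CCN2 start is shown because it held 3 such motifs, a number reached by 0.128% of all windows. It lies at chr6:131951374-131951622 on the minus strand, ends 1 base before the start of the GENCODE 29 transcript, and is written 5′ to 3′ with the motifs in capitals.
CCN2: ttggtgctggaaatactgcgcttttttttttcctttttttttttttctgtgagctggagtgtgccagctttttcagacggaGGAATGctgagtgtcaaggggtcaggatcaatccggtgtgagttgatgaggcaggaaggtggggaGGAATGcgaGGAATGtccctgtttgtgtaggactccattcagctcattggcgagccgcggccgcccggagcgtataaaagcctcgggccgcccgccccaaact

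The single sites of the other genes are shown with the bases around them, again 5′ to 3′ on the strand of the gene, with motifs in capitals. ANKRD1 held 2 copies of GGAATG, reached by 1.37% of all windows, and between them the letters TGATTCA. These match TGANTCA, the pattern searched here for AP-1, in which N allows any base. That loose pattern was found in 7.71% of all windows. None of these motifs overlapped another. In AMOTL2 and AXL the motif lay on the opposite strand and before the downstream of the 2 RefSeq starts.
ANKRD1, chr10:90921290-90921319: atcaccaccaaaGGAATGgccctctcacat
ANKRD1, chr10:90921265-90921294: cacatttcttccTGATTCAcatattcagca
ANKRD1, chr10:90921198-90921227: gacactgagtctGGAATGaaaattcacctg
AMOTL2, chr3:134374499-134374528: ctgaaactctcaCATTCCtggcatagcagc
AXL, chr19:41226531-41226560: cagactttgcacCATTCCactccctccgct
LATS2, chr13:21061560-21061589: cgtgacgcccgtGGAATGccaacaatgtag

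Counted from the RefSeq start, the CCN2 motifs began at -169, -104 and -95, and those of ANKRD1 began at -220 and -128. The AMOTL2 motif began at -69, the AXL motif at -212 and the LATS2 motif at 10 bases into the transcript. In GENCODE 29 the upstream motif of ANKRD1, all motifs of CCN2 and that of LATS2 lay before the annotated gene, the downstream motif of ANKRD1 and that of AMOTL2 lay in an exon, and that of AXL lay in an intron. The CArG box, the motif of serum response factor, was searched as well and was found in none of the 7 windows, against 1.29% of all windows. A match of letters is a description of the sequence and does not show that a factor bound there in these cells.

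FAP, the overexpressed gene, checked the labels. It had 49, 42 and 55 counts in the LX-2Vector libraries and 14864, 15160 and 14805 in the LX-2FAP libraries, a log2 fold change of 8.33 ± 0.13 (SE). Total counts ran from 17355700 to 26352060 per library, and the first principal component held 36.2% of the variance, with all LX-2Vector libraries below 0 and all LX-2FAP libraries above it. LX-2FAP replicate 1 stood nearest to the LX-2Vector libraries at 1.91, against 25.4 for replicate 2. Across all genes, 967 of the 18275 tested passed an adjusted p of 0.05, 469 higher and 498 lower in LX-2FAP. That count depended on single libraries, from 26 without LX-2FAP replicate 3 and 129 without replicate 2 to 1949 without replicate 1, and lay at 391, 662 and 395 without LX-2Vector replicates 1, 2 and 3. DESeq2 called 614 genes higher and 407 lower. Of 7 stellate or mesenchymal markers, VIM (vimentin) rose and PDGFRB and COL1A1 fell, LRAT was at 0 in every library and DES had at most 1 count. Their summed level was 1837 to 1943 CPM (counts scaled to the size of the library) in LX-2Vector and 1900 to 2018 in LX-2FAP. Most of this sum was VIM, whose mean went from 1545 to 1695 CPM with FAPα, while the other tested markers averaged lower. ACTA2 went from a mean of 3.82 to 2.94 CPM, every LX-2FAP library below every control, and did not pass in edgeR (adjusted p = 0.145). COL1A2 had only 13 to 33 counts per library and was not called. The summed markers of hepatocytes stayed at or below 0.171 CPM in every library, with TTR at 0 and ALB at 1 to 3 counts. The sums of epithelial markers stayed at or below 1.25 CPM, those of leukocytes at or below 6.67 CPM, and those of endothelial cells ran from 6.44 to 8.04 CPM in the controls and from 5.00 to 6.49 CPM with FAPα, with VWF called lower.

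Levels of different genes were compared in FPKM, which divides counts by gene length and library size. AXL, the receptor tyrosine kinase for GAS6, had the highest level of the members, with 122.8, 118.3 and 117.6 FPKM in LX-2Vector and 122.0, 131.9 and 128.5 FPKM in LX-2FAP. CCN1 followed with 38.9, 37.8 and 33.8 FPKM in LX-2Vector and 38.2, 46.6 and 43.7 FPKM in LX-2FAP. These levels placed AXL at percentile 99.0 and CCN1 at percentile 94.3 of the tested genes in LX-2Vector. CRIM1, a transmembrane protein that binds bone morphogenetic proteins, had 30.01 ± 0.455 FPKM (SD, n = 3) in LX-2Vector, and CCN2 had 21.4 ± 4.41 FPKM. AMOTL2 at 15.3 ± 1.15 FPKM, ANKRD1 at 11.7 ± 0.734 FPKM and LATS2 at 10.6 ± 0.502 FPKM lay lower, yet all above the median of tested genes. The CCN family thus spanned a wide range in one cell line: CCN3 had 4.28 ± 0.194 FPKM, CCN5 had 0.452 ± 0.0621 FPKM and CCN4 was close to 0.

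**Figure D1:**
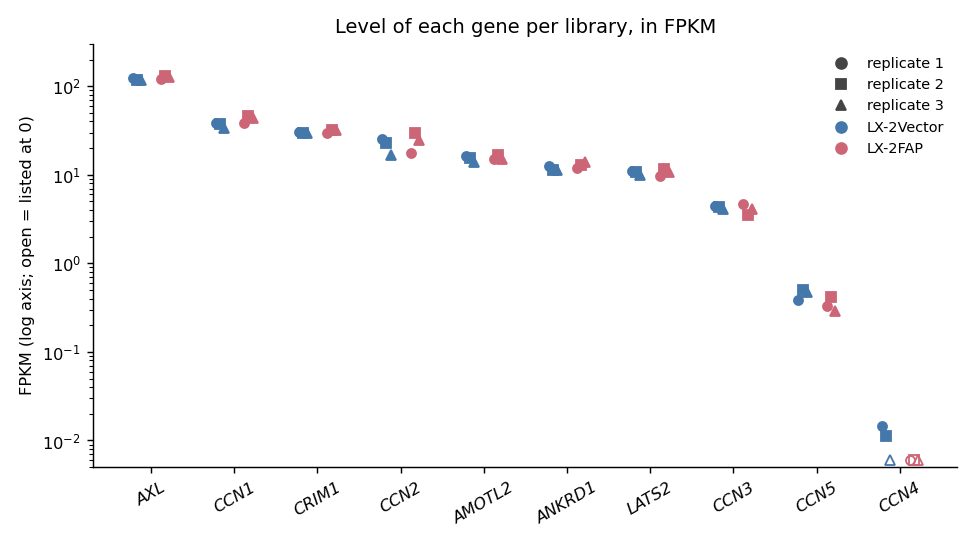
Level of each of the 10 genes in FPKM (log axis) in each library, LX-2Vector in blue and LX-2FAP in red, with the point shape giving the replicate number and open points a value listed at 0. AXL lay at 118 to 132 FPKM and CCN5 at 0.293 to 0.497 FPKM, and the order of the genes was the same in all 6 libraries.

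The order of the 10 genes by FPKM was the same in all 6 libraries, apart from CCN4, which was listed at 0 in 4 of them and stood last throughout. For every pair of neighbors in that order the 3 values of the higher gene lay above the 3 values of the lower gene in both groups. The narrowest gaps were ANKRD1 over LATS2, a ratio of 1.05 to 1.29 across the libraries, and CRIM1 over CCN2, a ratio of 1.08 to 1.79. The order between genes rests on the lengths used by the authors. For CCN1 the length behind the FPKM values was 3698 bases, against 2455 merged exon bases in GENCODE 29, and with the latter its mean level would be 55.5 FPKM in LX-2Vector. With GENCODE 29 lengths ANKRD1 and LATS2 would change places in LX-2Vector, at 10.6 and 10.7 FPKM, while CCN2 and AXL would have 21.4 and 119.1 FPKM there. CCN1 exceeded CCN2 in every library, with an FPKM ratio of 1.55, 1.67 and 2.05 in LX-2Vector and of 2.17, 1.59 and 1.79 in LX-2FAP, so that the ratios of the groups overlapped.

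The comparison of LX-2FAP with LX-2Vector asked whether these genes differed in level when FAPα was overexpressed. Of the 9 members that could be tested, 1 passed an adjusted p of 0.05 in edgeR's quasi-likelihood test, CCN1, which was higher, and 0 were lower. In all tested genes 5.29% were called, 2.57% higher and 2.73% lower, and a count of 1 among 9 members is close to that background. Without an adjustment, 2 of the 9 members had a p under 0.05, CCN1 and AXL, against 22.2% of all tested genes. Both were higher, as were 10.5% of all tested genes at this threshold, with 11.6% lower. DESeq2 called the same 2 members and 0 lower, against 5.59% of all tested genes, 3.36% higher and 2.23% lower. The fold changes lay above 0 in 7 members and below 0 in 2, with a median log2 fold change of 0.08 and a range of -0.34 to 0.24. In all tested genes 47.0% lay above 0 and the median was -0.01. Here 1 member, AXL, had LX-2FAP libraries that did not overlap the LX-2Vector libraries in normalized CPM, against 26.4% of all tested genes, 13% higher and 13.4% lower. In bulk RNA, fewer cells expressing a gene and less RNA per cell cannot be told apart.

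**Figure D2:**
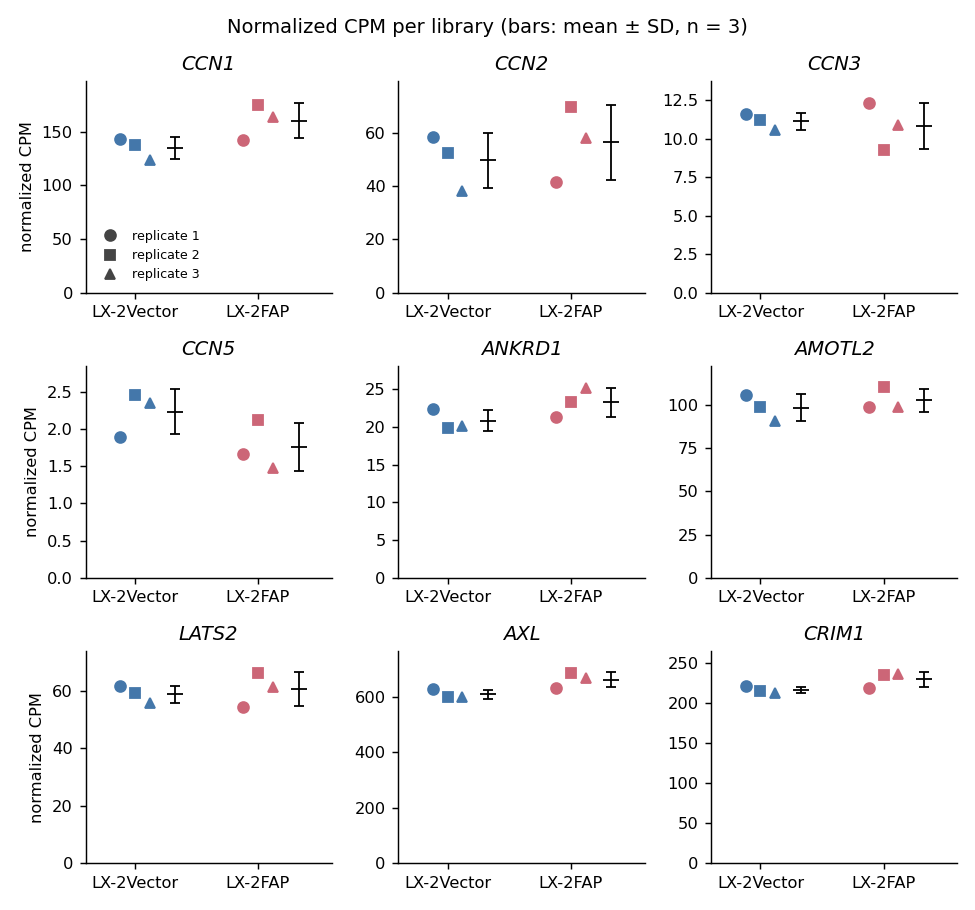
Normalized CPM of the 9 tested members in each library (y axis from 0), LX-2Vector in blue and LX-2FAP in red, with the point shape giving the replicate number and bars the mean ± SD (n = 3). CCN1 averaged 135.2 CPM in the controls and 160.4 CPM in LX-2FAP cells, and LX-2FAP replicate 1 lay inside the LX-2Vector range. AXL was the only one of the 9 whose groups did not overlap.

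CCN1 (ENSG00000142871, chr1:85580761-85583962, plus strand) had 3791, 2423 and 2637 counts in the LX-2Vector libraries and 3415, 3145 and 3433 counts in the LX-2FAP libraries. In normalized CPM these were 143.5, 138.1 and 124.0 in LX-2Vector and 142.5, 174.9 and 163.9 in LX-2FAP. LX-2FAP replicates 2 and 3 stood above all controls, and LX-2FAP replicate 1 lay below LX-2Vector replicate 1, so that the groups overlapped. The log2 fold change was 0.24 ± 0.07 (SE), or 1.18-fold higher with a 95% interval of 1.07 to 1.31, and the adjusted p was 0.0456. This call was lost when any library but LX-2FAP replicate 1 was left out, with an adjusted p of 0.0579, 0.0695 and 0.127 without LX-2Vector replicates 1, 2 and 3 and of 0.204 and 0.201 without LX-2FAP replicates 2 and 3. Leaving out LX-2FAP replicate 1 gave a log2 value of 0.33 at an adjusted p of 0.00269. The call was also lost with library size alone (adjusted p = 0.0618) and with a replicate block (adjusted p = 0.0539).

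CCN2 (ENSG00000118523, chr6:131948176-131951373, minus strand) had 1546, 918 and 814 counts in LX-2Vector and 996, 1254 and 1215 counts in LX-2FAP. Its normalized CPM was 58.5, 52.3 and 38.3 in LX-2Vector and 41.6, 69.7 and 58.0 in LX-2FAP. LX-2Vector replicate 3 and LX-2FAP replicate 1 were the lowest of their groups, and the groups overlapped over most of their range. The coefficient of variation was 20.9% in LX-2Vector and 25.1% in LX-2FAP, while counting error alone would give 3.03% and 2.94%, so the spread between libraries exceeded counting error. Its log2 fold change amounted to 0.17 ± 0.15 (SE), with a 95% interval of -0.15 to 0.49, and did not pass the test (adjusted p = 0.559). A fold change of 1.40 in favor of LX-2FAP therefore lay at the edge of what these libraries allowed. Leaving out LX-2FAP replicate 2 gave -0.01 on the log2 scale, and leaving out LX-2FAP replicate 1 gave 0.36. Of the exon bases of CCN2, 8.34% also belong to AL133346.1 on the opposite strand, and the sources used here do not say whether counting used the strand.

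CCN3 (NOV, ENSG00000136999, chr8:119416306-119424353, plus strand), a family member that is often described as opposing CCN2, had 306, 197 and 224 counts in LX-2Vector and 295, 167 and 228 in LX-2FAP. Its normalized CPM was 11.6, 11.2 and 10.5 in LX-2Vector and 12.3, 9.28 and 10.9 in LX-2FAP, and LX-2FAP held both the highest and the lowest value. The fitted log2 fold change was -0.03 ± 0.10 (SE), with a 95% interval of -0.25 to 0.19 (adjusted p = 0.906). CCN5 (WISP2, ENSG00000064205, chr20:44714844-44728509, plus strand), which lacks the C-terminal domain of the other family members, had 50, 43 and 50 counts in LX-2Vector and 40, 38 and 31 in LX-2FAP. In normalized CPM these were 1.89, 2.45 and 2.35 against 1.67, 2.11 and 1.48, and LX-2FAP replicate 2 lay inside the LX-2Vector range. CCN5 had the lowest log2 fold change of the tested members, -0.34 ± 0.19 (SE), with a 95% interval of -0.75 to 0.07 (adjusted p = 0.321). Its coefficient of variation of 13.3% in LX-2Vector and 18.5% in LX-2FAP was close to the 14.5% and 16.6% that counting error alone would give, so its precision was limited by its low counts.

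CCN4 (WISP1, ENSG00000104415, chr8:133191039-133231690, plus strand), known as a target of Wnt signaling, had 2, 1 and 0 counts in LX-2Vector and 0 counts in every LX-2FAP library. It was too low to be tested. A count of 0 in the 63660094 counts of the LX-2FAP libraries together allows a level of up to 0.0471 CPM, counting error only, so a difference between the groups was not detectable at this depth.

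ANKRD1 (ENSG00000148677, chr10:90912096-90921276, minus strand), which encodes the cardiac ankyrin repeat protein, had normalized CPM of 22.4, 19.8 and 20.2 in LX-2Vector and 21.3, 23.4 and 25.2 in LX-2FAP. LX-2FAP replicates 2 and 3 stood above all controls and replicate 1 did not. In the fit, the log2 fold change was 0.15 ± 0.08 (SE), with a 95% interval of -0.01 to 0.32 (adjusted p = 0.261).

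AMOTL2 (ENSG00000114019, chr3:134355874-134375479, minus strand) encodes an angiomotin that holds YAP at cell junctions and actin. Its normalized CPM was 106.0, 99.1 and 90.6 in LX-2Vector and 99.0, 110.5 and 99.2 in LX-2FAP, and the groups overlapped. The log2 fold change was 0.06 ± 0.06 (SE), with a 95% interval of -0.07 to 0.18 (adjusted p = 0.613). LATS2 (ENSG00000150457, chr13:20973032-21061547, minus strand), the Hippo kinase, had normalized CPM of 61.7, 59.4 and 55.8 in LX-2Vector and 54.6, 66.3 and 61.3 in LX-2FAP. LX-2FAP replicate 1 lay below the control range, replicate 2 above it and replicate 3 inside it. Its log2 fold change amounted to 0.04 ± 0.06 (SE), with a 95% interval of -0.10 to 0.18 (adjusted p = 0.794). For both feedback genes an increase above 1.14-fold lay outside the interval.

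AXL (ENSG00000167601, chr19:41219203-41261766, plus strand) had 16607, 10538 and 12720 counts in LX-2Vector and 15155, 12345 and 14007 in LX-2FAP, the highest counts of the set. Its normalized CPM was 628.6, 600.5 and 598.0 in LX-2Vector and 632.3, 686.3 and 668.6 in LX-2FAP. All LX-2FAP libraries stood above all LX-2Vector libraries, replicate 1 of each group by a narrow margin. The fitted log2 fold change was 0.12 ± 0.04 (SE), or 1.09-fold with a 95% interval of 1.02 to 1.15, and missed the threshold (adjusted p = 0.0903). It passed without LX-2FAP replicate 1 (adjusted p = 0.0255) and in DESeq2's Wald test, at an adjusted p of 0.04998 that lay just under the threshold. CRIM1 (ENSG00000150938, chr2:36355926-36551135, plus strand) had normalized CPM of 221.1, 215.3 and 213.1 in LX-2Vector and 218.7, 234.6 and 235.9 in LX-2FAP. LX-2FAP replicate 1 again lay inside the control range and the other two above it. In the fit, the log2 fold change was 0.08 ± 0.04 (SE), with a 95% interval of -0.00 to 0.17 (adjusted p = 0.251).

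Several members shared one order of the libraries, a pattern that was noticed after their values were seen and is given without a test. In CCN1, CCN2, AMOTL2, LATS2 and AXL, LX-2Vector replicate 1 was the highest and replicate 3 the lowest of the controls, and LX-2FAP replicate 2 was the highest and replicate 1 the lowest of its group. These 5 of 9 tested members compare with 5.77% of all tested genes that had both orders. The LX-2Vector order was seen in 7 of 9 members, CCN3 and CRIM1 included, against 18.7% of all tested genes. LX-2FAP replicate 1 was the lowest of its group in 7 of 9 members, ANKRD1 and CRIM1 included, against 36.2% of all tested genes. CCN2 had the widest spread of the 5 and AXL the narrowest. Among 14 other YAP/TAZ targets that could be tested, GADD45A alone had both orders, with 110.3, 108.8 and 87.4 normalized CPM in LX-2Vector and 101.1, 130.8 and 118.2 in LX-2FAP. Both orders were also seen in 3 of 24 Hippo pathway genes, LATS1, NF2 and VGLL4, and in 0 of 13 partners of CCN proteins and AXL. LX-2FAP replicate 1 was the lowest of its group in 9 of 16 upstream Hippo components. LX-2FAP replicates 2, 3 and 1 had the same order on the first principal component of all genes, whereas the LX-2Vector libraries did not follow the members' order there, with -12.0, -11.6 and -20.7 for replicates 1, 2 and 3. The part of that component in the members' values was not tested.

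**Figure D3:**
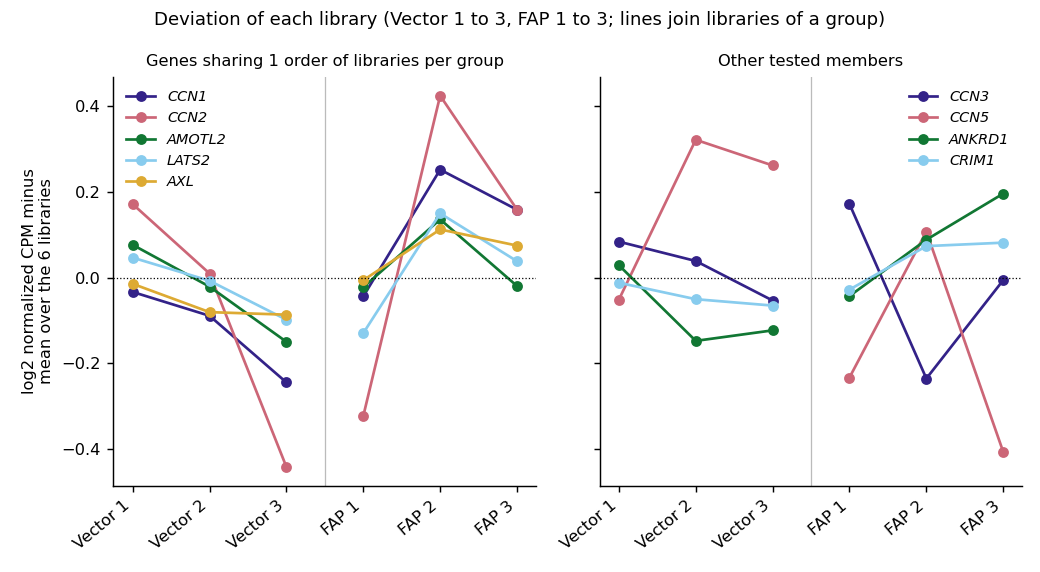
Log2 normalized CPM of each tested member in each library, minus the mean of that gene over the 6 libraries; lines only link the points of a gene within a group. The left panel shows the 5 genes that shared an order, where LX-2FAP replicate 1 lay lowest and replicate 2 highest in LX-2FAP, and the right panel shows CCN3, CCN5, ANKRD1 and CRIM1.

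The co-activators and their DNA-binding partners were measured in the same libraries. YAP1 had 368.9, 390.1 and 389.6 normalized CPM in LX-2Vector and 385.8, 383.9 and 389.7 in LX-2FAP, a log2 fold change of 0.01 ± 0.04 (SE) with a 95% interval of -0.07 to 0.10 (adjusted p = 0.877). WWTR1 averaged 64.6 ± 4.86 CPM (SD, n = 3) in the controls and 68.5 ± 0.850 CPM with FAPα, with an adjusted p of 0.388. TEAD1, the TEAD factor with the highest FPKM of the 4, averaged 346.4 ± 4.10 CPM in the controls and 348.3 ± 6.44 CPM with FAPα (adjusted p = 0.933). With library size alone the small log2 fold changes of YAP1 and TEAD1 were -0.02 and -0.02. TEAD2 averaged 9.65 ± 1.79 CPM against 8.07 ± 0.232 CPM, a log2 fold change of -0.27 ± 0.12 (SE) that did not pass (adjusted p = 0.195). TEAD3 and TEAD4 had log2 fold changes of -0.08 and -0.05 with adjusted p-values of 0.459 and 0.796. These are RNA levels; YAP and TAZ are regulated largely by phosphorylation and location, which RNA sequencing does not measure.

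Of 24 Hippo pathway genes, all tested, 1 rose and 0 fell, against 5.29% called in the whole table, with a median log2 fold change of 0.04 and a range of -0.27 to 0.21. Among the 16 upstream components the gene that rose was FRMD6, a FERM domain protein that acts upstream of the Hippo kinases, and 0 of the 8 effectors passed in edgeR or DESeq2. At an unadjusted p under 0.05, 5 of the 24 genes were higher and 1 was lower, and of the effectors 1 was higher (VGLL3) and 1 lower (TEAD2). In all tested genes 22.2% had such a p, 10.5% higher and 11.6% lower. The total of 6 of 24 is close to that 22.2%. DESeq2 called 2 of the 24 genes higher and 0 lower, against 5.59% of all tested genes in either direction. FRMD6 had normalized CPM of 311.5, 340.4 and 328.6 in LX-2Vector and 351.3, 378.4 and 381.0 in LX-2FAP, with no overlap. Its log2 fold change was 0.18 ± 0.04 (SE) at an adjusted p of 0.0316. The call was lost without LX-2Vector replicates 1 or 3 (adjusted p = 0.0887 and 0.0620), without LX-2FAP replicates 2 or 3 (adjusted p = 0.132 and 0.195), and with library size alone (adjusted p = 0.0594). The groups did not overlap in 7 of the 24 genes, a total close to the 26.4% of all tested genes. Of these 7, 6 were higher, all of them upstream components, and 1 was lower, against 13% and 13.4% of all tested genes. The split by direction was not tested.

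Of 15 further genes used as YAP/TAZ target genes, 14 could be tested, and FOXF2 was too low at 1 to 5 counts per library. Among these 14, 1 rose and 0 fell, against 5.29% called in the whole table, with 7 log2 fold changes above 0 and 7 below and a median of 0.00. At an unadjusted p under 0.05 the list had 7 of 14 genes, against 22.2% of all tested genes. It had 2 genes higher and 5 lower at this threshold, against 10.5% and 11.6% of all tested genes. The groups did not overlap in 5 of the 14, 3 higher and 2 lower, against 26.4% of all tested genes. The list was not tested as a set. DESeq2 called 1 higher and 0 lower, against 5.59% in either direction. The gene that rose was NT5E, which encodes CD73, the ecto-5′-nucleotidase that makes adenosine. It had normalized CPM of 686.0, 718.2 and 693.6 in LX-2Vector and 806.3, 834.9 and 853.5 in LX-2FAP, and all LX-2FAP libraries stood above all controls. The log2 fold change was 0.25 ± 0.04 (SE) at an adjusted p of 0.00411, and the call was lost without LX-2FAP replicate 3 (adjusted p = 0.0646). IGFBP3, singled out after its values were seen, had the largest fold change in the list, -0.89 ± 0.29 (SE), and did not pass (adjusted p = 0.0787). Its normalized CPM was 9.16, 8.09 and 21.3 in LX-2Vector and 9.05, 6.45 and 5.01 in LX-2FAP, so that LX-2Vector replicate 3 alone stood apart.

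**Figure D4:**
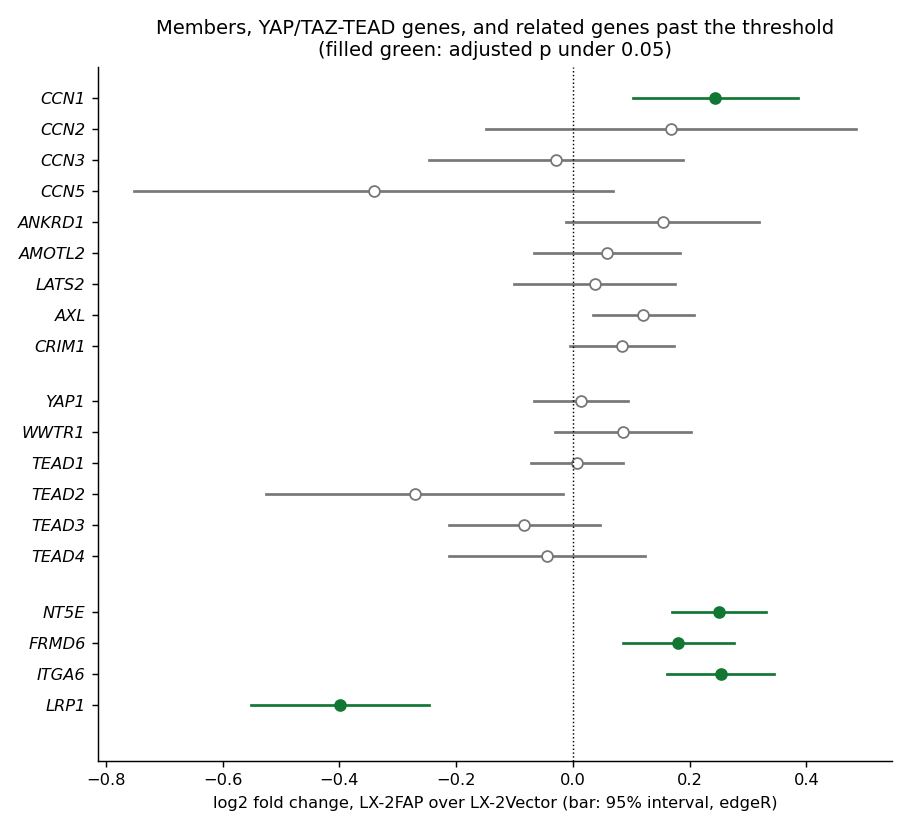
Log2 fold change of LX-2FAP over LX-2Vector (x axis) with its 95% interval from edgeR for the 9 tested members, the co-activators and TEAD factors, and the other listed genes past the threshold; filled green points have an adjusted p under 0.05. CCN1 at 0.24, NT5E at 0.25, FRMD6 at 0.18 and ITGA6 at 0.25 lay above 0 and LRP1 at -0.40 below, and the intervals of CCN2 and CCN5 were the widest of the members.

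Of 14 genes listed as partners of the CCN proteins and of AXL, 13 could be tested. CCN6, itself a CCN family gene outside the chosen set, was too low at 1 to 6 counts per library. Among the 13 tested genes 1 rose and 1 fell, against 5.29% called in the whole table, and the median log2 fold change was -0.03. At an unadjusted p under 0.05, 2 were higher and 2 lower, against 22.2% of all tested genes in either direction. The gene that rose was ITGA6, the integrin α6 subunit, which pairs with β1 or β4 and binds laminin and CCN proteins. It had normalized CPM of 165.8, 178.6 and 182.7 in LX-2Vector and 208.0, 209.2 and 210.6 in LX-2FAP, and the 3 LX-2FAP values lay closer together than the controls. Its log2 fold change was 0.25 ± 0.04 (SE) at an adjusted p of 0.00765. The gene that fell was LRP1, an endocytic receptor that takes up many ligands, CCN2 among them. It had normalized CPM of 194.9, 167.0 and 192.5 in LX-2Vector and 158.8, 127.1 and 134.1 in LX-2FAP, and every LX-2FAP library lay below every control. Its log2 fold change was -0.40 ± 0.07 (SE) at an adjusted p of 0.00823. Both calls were lost without LX-2FAP replicate 3, each at an adjusted p of 0.0748. GAS6, the ligand of AXL, averaged 28.0 CPM in the controls and 27.4 CPM in LX-2FAP cells and was not called (adjusted p = 0.806), and neither PROS1 nor the related receptors TYRO3 and MERTK passed. The other integrin subunits in the list, ITGAV, ITGB1, ITGB3, ITGB5 and ITGA5, did not pass either.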

How the data were processed

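RNA was sequenced in 3 LX-2Vector and 3 LX-2FAP libraries, and groups and replicate numbers were read from the sample titles. Ribosomal RNA depletion is named in the labels, while the methods of the study name both this depletion and poly(A) isolation, which differ in the RNA they keep. Per the submitters' processing notes, the authors aligned reads with HISAT2 2.0.5 and counted them with featureCounts 1.5.0-p3, and DESeq2 1.16.1 and edgeR are named as well. The authors deposited whole-number counts per gene, not normalized, beside FPKM values that the authors computed from count, gene length and library size. The notes name hg18 as build, yet 58337 of the 60605 Ensembl identifiers were found in GENCODE 29 (GRCh38), by which genes were matched, so gene coordinates are those of GENCODE 29. Promoter sequences came from RefSeq (GRCh38.p14). Columns with the authors' own fold changes and p-values were not used.

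Counts were fitted in edgeR 4.0.16 (R 4.3.3) with TMM normalization, a filter on low counts (filterByExpr, at least 10 counts, total at least 15) and the quasi-likelihood test over 18275 genes, 2-sided, with Benjamini-Hochberg adjustment over all of them and a threshold of 0.05. Normalized CPM is the count scaled by the TMM-adjusted library size. The fit was tested on simulated data. Alternatives were DESeq2 1.42.0, DESeq2 size factors, library size alone, other filters, limma 3.58.1 on log2(FPKM + 1) and log2(FPKM + 0.1), a replicate block, leaving out each library, an adjusted p of 0.01, and the study's own cutoff (above 1.2-fold with an unadjusted p under 0.05).

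The members and gene lists were chosen with earlier results of these data known. The text names all 10 members, FAP, YAP1, WWTR1 and TEAD1 to TEAD4, and from each list the genes past the threshold; other genes are named as examples or to account for a list. An exact permutation test of 3 against 3 libraries cannot give a p below 0.1, so none was used. Each library counted as 1 sample. Replicates of a group differed beyond counting noise, which does not show that they came from separate cultures.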

Additional observations from a re-analysis of the deposited data

How the results depend on the processing

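The number of members called, all of them higher, was 1 in the fit as reported. It was 0 with library size alone, with limma on log2(FPKM + 1) or log2(FPKM + 0.1), with a replicate block, at an adjusted p of 0.01 and by the study's cutoff, 2 in DESeq2's Wald test, and 0 to 2 when 1 library was left out (2 only without LX-2FAP replicate 1). No member was called lower in any of these. The log2 fold change of CCN1 stayed above 0 in all 14 alternatives, 0.18 to 0.33, and was called in 5 of them; AXL was called in 2, at 0.13 in DESeq2 and 0.16 without LX-2FAP replicate 1, and lay at 0.09 to 0.16 over all 14. Other YAP/TAZ targets called, 1 as reported, were 2 with library size alone, 3 with no filter, 0 with limma at either pseudocount, 2 by the study's cutoff and 0 to 3 with 1 library left out. Hippo pathway genes called, 1 as reported, were 0 with library size alone, with limma and at an adjusted p of 0.01, 2 in DESeq2, and 0 to 1 with 1 library left out. Partners called, 2 as reported, were 0 with limma, 1 by the study's cutoff, and 0 to 2 with 1 library left out. All genes called, 967 as reported, were 1606 with no filter, 2 with limma at either pseudocount, 116 at an adjusted p of 0.01, and 26 (without LX-2FAP replicate 3) to 1949 (without LX-2FAP replicate 1) with 1 library left out; the cause was not tested.

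Directions turned only in genes that were not called. With 1 library left out, the log2 fold change ran from -0.00559 to 0.356 for CCN2, from -0.135 to 0.0636 for CCN3, from -0.0263 to 0.113 for LATS2, from -0.0898 to 0.0667 for TEAD4 and from -0.0112 to 0.0339 for YAP1. With library size alone and with limma at pseudocounts of 1 and 0.1 it was -0.0151, -0.0144 and -0.0146 for YAP1 and -0.0211, -0.0204 and -0.0210 for TEAD1. Library size alone moved the median of all genes from -0.01 to -0.04. Same-numbered libraries showed no broad shared deviation, with correlations of -0.04, 0.04 and -0.01 between the deviations of replicates 1, 2 and 3. These correlations cannot show whether same-numbered libraries shared a culture or a preparation. Under a replicate block 975 genes were called and CCN1 was not. CCN4 could not be tested, and the adjusted p of CCN5 in DESeq2 was not given by the tool. The 31 to 50 counts of CCN5 limit its precision, and CCN4 lay at the floor of detection.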
